A study of Homo sapiens with 84 samples.

Results

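The genes described here are 8 keratins: KRT5, KRT7, KRT8 and KRT80 of type II, and KRT14, KRT17, KRT18 and KRT19 of type I. They were taken by symbol, 8 of the 57964 genes in a table of estimated counts, and followed over all 28 groups of the study. The libraries came from NCI-H1373 and NCI-H647, 2 established lines of human non-small cell lung cancer, and each line stands for itself and not for its tumour type. Cells received RBN-2397 (10, 30 or 300 nM), RBN012337 (3, 10 or 100 nM) or the vehicle DMSO, and were collected after 6 or 24 h, with 3 libraries in each group. The labels describe both compounds as inhibitors of PARP7, an enzyme encoded by TIPARP that attaches single ADP-ribose units to proteins. The sample labels spell the first compound RBN012397. The labels speak of triplicate experiments and name no culture or day, and p-values speak only of how far these libraries spread, possibly for technical reasons.

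Keratins are the intermediate filament proteins of epithelial cells. A filament is built from pairs of 1 type I and 1 type II chain, and a chain without a partner is usually degraded. KRT8 with KRT18 is the pair of simple epithelia, and KRT7 and KRT19 are added in ducts and in glandular lung epithelium, where all of them are used to recognise carcinoma cells. KRT5 with KRT14 is the pair of basal cells in stratified and airway epithelium. KRT17 belongs to basal cells and skin appendages and is induced in wounded or inflamed skin, and KRT80 is a type II keratin found near desmosomes, the junctions that anchor keratin filaments.

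The sequences below show how alike 6 of these genes are at one of the most conserved stretches of the family, the end of the central rod, since 3' libraries and near-identical copies decide how well the members can be told apart. Each line gives 45 coding bases in the direction of the transcript, read from GENCODE 29 transcripts on GRCh38. Capitals mark 6 codons within the helix termination motif.
KRT7: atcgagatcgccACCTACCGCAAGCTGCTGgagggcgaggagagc
KRT5: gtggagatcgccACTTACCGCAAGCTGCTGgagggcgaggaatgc
KRT18: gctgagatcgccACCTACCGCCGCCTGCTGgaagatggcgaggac
KRT14: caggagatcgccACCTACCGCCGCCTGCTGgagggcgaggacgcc
KRT17: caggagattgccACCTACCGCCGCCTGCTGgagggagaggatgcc
KRT19: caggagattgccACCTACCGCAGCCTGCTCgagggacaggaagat
The stretch of KRT5 lies at chr12:52516639-52516683 on the minus strand, and those of KRT7 (chr12:52245586-52245630) and KRT18 (chr12:52952293-52952337) on the plus strand. Those of KRT14 (chr17:41583237-41583281), KRT17 (chr17:41620661-41620705) and KRT19 (chr17:41523779-41523823) lie on the minus strand, and each stretch is within a coding exon. The capitals of KRT14, KRT17 and KRT18 were identical in 18 of 18 bases, and the whole stretch matched in 42 of 45 bases between KRT14 and KRT17 and in 40 of 45 between KRT5 and KRT7. The 8 pairs across the types matched in 31 to 36 bases and the 6 pairs within type I in 31 (KRT18 and KRT19) to 42, so these ranges overlapped. Words of 31 bases were also compared over the last 500 bases of each transcript, which contain the stretch in every gene shown but KRT5. For KRT18, 290 of the 470 words also occurred in transcripts of other genes. The number was 198 of 470 for KRT8 and for KRT14, 81 for KRT17, 38 for KRT19, 34 for KRT7, 2 for KRT80 and 0 for KRT5. For KRT14 the closest other gene was KRT16P6, for KRT18 KRT18P11 and for KRT8 KRT8P45, all pseudogenes. Pseudogenes named after KRT8, KRT17, KRT18 or KRT19 received few counts, at most 1.68% of the member's count in a line (KRT18 in NCI-H647). KRT16P6, the closest to KRT14, was not among those counted. Counts of KRT8, KRT14, KRT17 and KRT18 are uncertain to the extent that reads from such words were split. KRT8 and KRT18 overlap by 1084 bases on opposite strands and KRT7 overlaps KRT86 by 2887 bases on the same strand, where KRT86 had 415 counts against 183014 for KRT7 in NCI-H1373 and 6730 against 102454 in NCI-H647. The handling of strand is not given in the sources used here.

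Libraries held 630654 to 6938453 counts. In NCI-H1373 replicate 3 at 6 h and replicates 2 and 3 at 24 h were shallow, with at most 2011404 counts each, in treated and DMSO groups alike. Some libraries stood apart from the other libraries of their line and time. At 6 h DMSO replicate 2 did so in NCI-H1373 (median r 0.909 with the others) and in NCI-H647 (0.902). RBN-2397 300 nM replicate 2 at 6 h in NCI-H647 (0.899) did as well. In NCI-H1373 at 24 h these were all 3 DMSO libraries and the libraries labelled RBN012337 100 nM replicates 1 and 2. The latter 2 each lay closest to the DMSO library of the same number. In NCI-H647 at 24 h these were DMSO replicates 2 and 3, and the library labelled RBN012337 100 nM replicate 2 lay closest to DMSO replicate 2 (r = 0.958). The responses of the keratins at 24 h were therefore also fitted without the RBN012337 100 nM group, a step added after the data were seen. The other results that use this group are given with it only. All 5 epithelial markers tested (EPCAM, CDH1, CLDN4, CLDN7, ESRP1) were detected in every NCI-H1373 library, with a summed level of 376 to 889.8 CPM (a gene's count scaled to a library total of 1000000). In NCI-H647 the sum was 1.14 to 9.87 CPM and ESRP1 was found in 4 of 42 libraries, so these defining markers were near 0 in that line. At 24 h the sum ran in NCI-H1373 over 438 to 619 CPM in DMSO and 464 to 889.8 CPM in treated libraries, and in NCI-H647 over 3.55 to 9.87 and 1.14 to 7.88 CPM. Of that list EPCAM rose at 24 h in NCI-H1373 (0.39 ± 0.13, edgeR adjusted p = 0.0466), the only 1 of its 5 genes to pass, and CDH1 gave -0.66 ± 0.26. The 5 fibroblast genes summed to 1.59 to 15.4 CPM in DMSO and 1.38 to 12.2 CPM in treated NCI-H1373 libraries at 24 h, and to 3.71 to 6.79 and 3.47 to 8.57 CPM in NCI-H647. The 5 blood cell genes summed to 1.11 to 4.76 and 0 to 12.9 CPM in NCI-H1373 and to 0.592 to 1.23 and 0 to 1.62 CPM in NCI-H647, with CD3E at 0 in all 84 libraries. The 4 endothelial genes summed to 0 to 1.66 and 0 to 3.06 CPM in NCI-H1373, where CDH5 was at 0. In NCI-H647 they summed to 1.18 to 3.09 CPM in DMSO and 3.95 to 8.69 CPM under treatment, and PECAM1 rose (1.65 ± 0.41, adjusted p = 0.0129), 1 of 2 tested genes. The part of these markers in the keratin results was not tested.

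In vehicle, 5 keratins stood higher in NCI-H1373 than in NCI-H647 at both times, 3 of them by less than 5-fold and KRT19 and KRT80 by more. KRT18 at 6 h was at 2194, 964 and 1517 CPM in the 3 NCI-H1373 libraries and at 398, 374 and 449 CPM in NCI-H647. The lines did not overlap, and the log2 difference was 2.02 ± 0.36 (standard error; edgeR adjusted p = 8.48e-06), or 4.05-fold. KRT8 differed by 1.08 ± 0.33 and KRT7 by 1.62 ± 0.54 on the log2 scale, with adjusted p = 0.00732 and 0.0152. KRT19 was at 1033, 760.4 and 766 CPM in NCI-H1373 and 5.76, 20.6 and 20.7 CPM in NCI-H647, a 60.3-fold difference (log2 5.91 ± 0.73, adjusted p = 2.27e-09). KRT80 was at 34.4, 20.6 and 26.4 CPM against 3.31, 2.22 and 1.32 CPM (log2 3.66 ± 0.44, adjusted p = 1.80e-10). KRT17 went the other way, with 0.905, 1.21 and 6.61 CPM in NCI-H1373 and 24.4, 12.8 and 20.1 CPM in NCI-H647 (log2 -2.99 ± 0.78, adjusted p = 0.00187). Of 7 fitted members, 7 passed at 6 h (6 higher in NCI-H1373 and 1 lower) and 5 at 24 h, beside 33.4% and 29% of all tested genes, so a difference between the lines was common. KRT14 is among the 7, but its 6 h call rests on 11 counts in 1 NCI-H1373 library against 0 in the other 5 DMSO libraries, so it has no fold here and is left out of the counts that follow. At 24 h KRT17 differed by -1.01 ± 0.97 (adjusted p = 0.474) and the other 5 kept their direction. Without replicate 1, KRT7, KRT8 and KRT17 at 6 h missed the threshold, leaving 3 of the other 6 members called. KRT7 also missed it without replicate 3 at 6 h and without replicates 2 or 3 at 24 h.

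KRT5 and KRT14, the basal pair, were almost silent. KRT5 had 0 counts in the 42 NCI-H1373 libraries, which allows up to 0.0236 CPM (3 counts of their total, counting error only), and 1 count in NCI-H647. KRT14 had 6 counts in the 42 NCI-H647 libraries, spread over 5 of them, and its DMSO libraries there held none, so no fold is given in that line. In NCI-H1373 KRT14 had 282 counts in 36 of 42 libraries. Neither KRT5 in any line nor KRT14 in NCI-H647 passed the filter on low counts, so 7 members were tested in NCI-H1373 and 6 in NCI-H647.

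After 24 h in NCI-H1373, keratin counts were higher under treatment across the simple epithelial set and in KRT17 and KRT14. Against DMSO, the mean of the 6 treatments was higher for 6 of the 7 tested members and lower for none, beside 6.13% of tested genes called higher and 6.02% called lower. The median log2 change of the 7 was 1.46, and of all tested genes -0.00573. Within replicate numbers 1, 2 and 3 taken alone, mean treated minus DMSO log2(CPM + 1) was above 0 in all 3 for each of the 7. Examples are 1.61, 1.12 and 1.44 for KRT18 and 0.55, 0.30 and 1.47 for KRT8. Other genes were not counted in this way, so such agreement is not shown to be particular to keratins. In bulk libraries more cells with a keratin and more keratin RNA per cell cannot be told apart.

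The simple epithelial pair came first. KRT18 was at 672, 918 and 907 CPM in DMSO and at 869 to 3469 (median 2389) CPM in the 18 treated libraries. Of these, 17 lay above all 3 DMSO libraries, and the exception was RBN012337 100 nM replicate 2 at 869 CPM. The log2 change was 1.46 ± 0.24, or 2.74-fold (edgeR adjusted p = 0.000150). Its partner KRT8 was at 581, 616 and 281 CPM in DMSO and 540.1 to 1111 (median 786) CPM under treatment, with 17 of 18 above all DMSO libraries. KRT8 rose by 0.79 ± 0.20 (adjusted p = 0.00967). The lowest DMSO library of KRT8 was replicate 3, and without it the change was 0.58 with adjusted p = 0.0811. The median log2 ratio of KRT18 to KRT8 counts was 0.577 in DMSO (range 0.212 to 1.69) and 1.54 in treated libraries (range 0.624 to 1.74), and these ranges overlapped.

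The other simple epithelial keratins moved the same way. KRT7 was at 218, 374 and 557 CPM in DMSO and 428 to 1473 (median 1163) CPM under treatment, a log2 change of 1.52 ± 0.32 (adjusted p = 0.00273). The treated libraries inside the DMSO range, 2 of 18, were RBN012337 100 nM replicates 1 and 2 at 428 and 447 CPM. KRT19, which pairs with KRT7 or KRT8, was at 538, 537 and 801 CPM in DMSO and 676 to 2243 (median 1403) CPM under treatment, a change of 1.12 ± 0.22 (adjusted p = 0.000854). Here too 16 of 18 treated libraries lay above the DMSO range. Without DMSO replicate 1, the lowest for KRT7, that gene's change was 1.19 with adjusted p = 0.0664, while KRT18 and KRT19 stayed below 0.05 whichever of the 21 libraries was left out (highest adjusted p = 0.0124 and 0.0335).

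KRT17 and KRT14 rose from very low levels. KRT17 was at 2.77, 1.85 and 0 CPM in DMSO, 13 counts in all, and at 5.62 to 121 (median 22.4) CPM in treated libraries, all 18 of which lay above the DMSO range. Its fitted change was 3.81 ± 0.90 (adjusted p = 0.00616), and the highest value, 121 CPM, came from RBN012337 100 nM replicate 3. KRT14 was at 0, 0 and 1.59 CPM in DMSO, 1 count in all, against 173 counts in the treated libraries, 0 to 12.9 (median 3.50) CPM. Per count sequenced this is a ratio of 22.9, with an exact 95% counting interval of 4.06 to 912. The fitted change of KRT14, 4.19 ± 1.22 (adjusted p = 0.0194), depends on the prior count of the fit. Leaving out DMSO replicate 1 gave adjusted p = 0.0748 for KRT17 and 0.282 for KRT14, and leaving out DMSO replicate 2 gave 0.109 for KRT14. With that first library out, 3 members in place of 6 were called higher. KRT80 did not pass: 19.7, 16.02 and 14.3 CPM in DMSO and 14.2 to 50.2 (median 23.1) CPM under treatment, 0.54 ± 0.25 on the log2 scale (adjusted p = 0.148). With the RBN012337 100 nM group left out, the same 6 members were called beside 8.11% of tested genes called higher and 8.54% called lower, with 1.58 ± 0.24 for KRT18 and 1.66 ± 0.33 for KRT7.

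**Figure D1:**
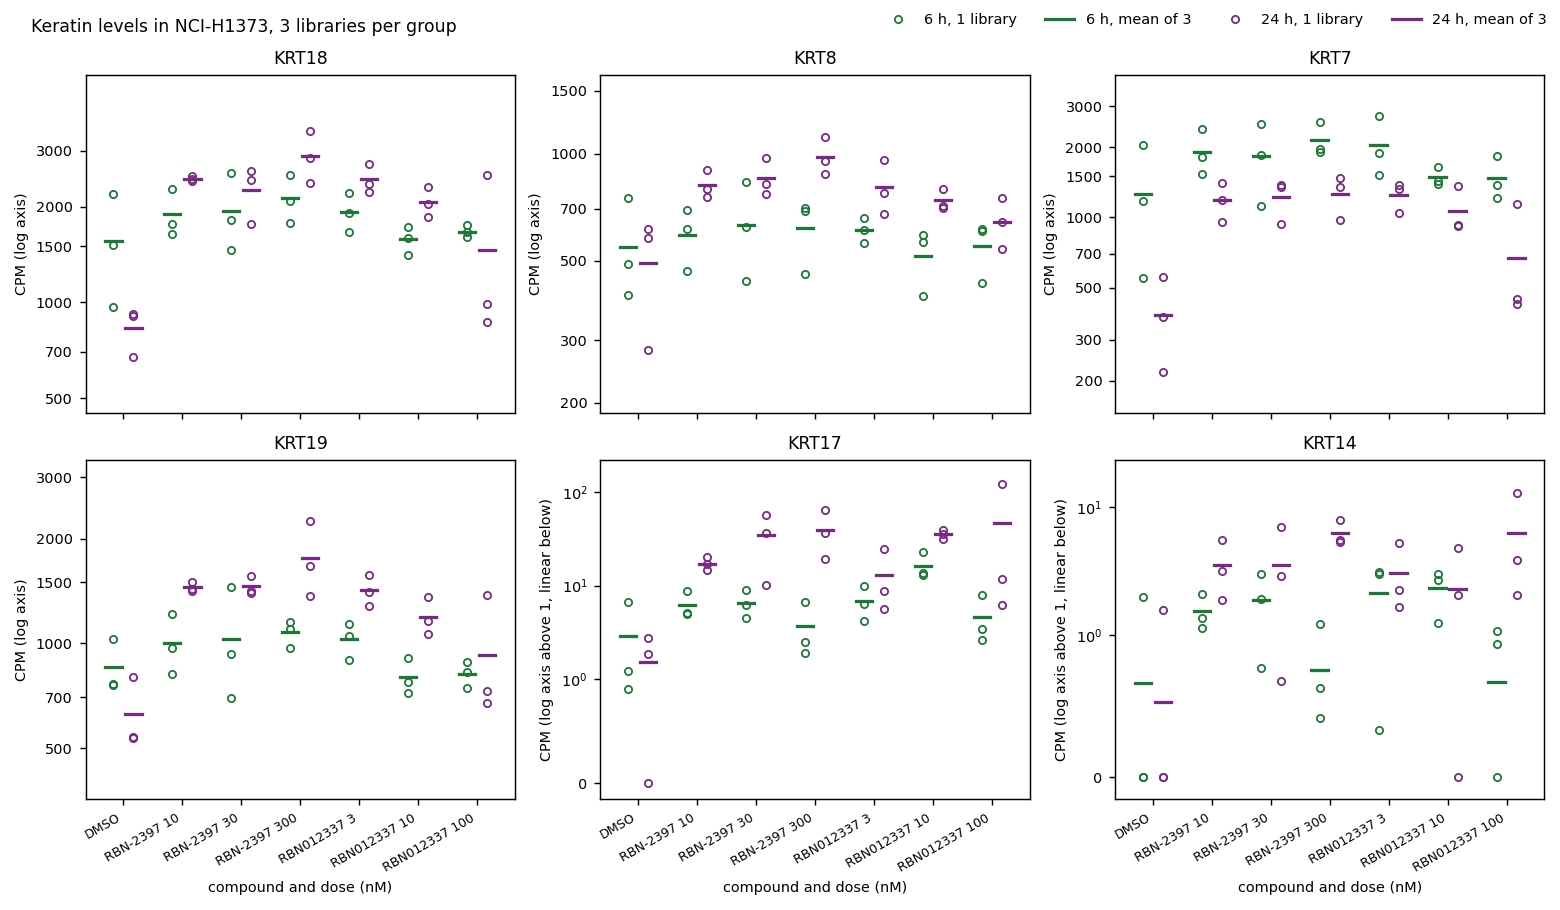
Levels of 6 keratins in NCI-H1373 in CPM (log axis, linear below 1 CPM for KRT17 and KRT14) by compound and dose, at 6 h (green) and 24 h (purple). Circles are single libraries and bars the means of 3. At 24 h the DMSO libraries of KRT18, at 672, 918 and 907 CPM, sit below all treated libraries but 1, and in the RBN012337 100 nM group 2 of 3 libraries sit near DMSO for KRT18, KRT7 and KRT19.

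In NCI-H647 at 24 h, KRT17 and KRT7 were higher under treatment and the other 4 tested members did not pass, beside 2.26% of tested genes called higher. KRT17 was at 5.33, 5.14 and 1.59 CPM in DMSO and 7.78 to 70.04 (median 42.97) CPM in treated libraries, with 18 of 18 above the DMSO range. Within replicate numbers 1, 2 and 3 the differences in log2(CPM + 1) were 2.22, 2.48 and 4.37. The change was 3.19 ± 0.44, or 9.15-fold (edgeR adjusted p = 5.65e-05), and stayed below 0.05 whichever of the 21 libraries was left out (highest adjusted p = 0.00388). The lowest treated value, 7.78 CPM, was that of RBN012337 100 nM replicate 2. KRT7 was at 275, 33.5 and 66.3 CPM in DMSO and 32.95 to 907 (median 638) CPM under treatment, 2.13 ± 0.57 on the log2 scale (adjusted p = 0.0293). The DMSO libraries themselves spanned 33.5 to 275 CPM, and RBN012337 100 nM replicate 2, at 33.0 CPM, lay below all of them. Within replicate numbers the KRT7 differences were 0.78, 3.71 and 3.35. The KRT7 call was lost without DMSO replicate 2 (adjusted p = 0.163), without DMSO replicate 3 (0.172) and when the 21 libraries of this line and time were fitted alone (0.113). Without the RBN012337 100 nM group both calls stood, beside 2.79% of tested genes called higher, at 3.29 ± 0.44 for KRT17 and 2.26 ± 0.58 for KRT7.

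The pair KRT8 and KRT18 did not pass in NCI-H647 at 24 h, in a fit without the replicate numbers. KRT18 was at 259.6, 304 and 175 CPM in DMSO and 165 to 715 (median 428) CPM in treated libraries, 0.74 ± 0.32 (adjusted p = 0.182). KRT8 was at 197, 224 and 163 CPM and 162 to 478 (median 285) CPM, 0.57 ± 0.30 (adjusted p = 0.293). For both, 14 or more of the 18 treated libraries lay above the DMSO range (15 and 14). By replicate number 1, 2 and 3, the differences in log2(CPM + 1) were 0.38, 0.54 and 1.32 for KRT18. For KRT8 they were 0.17, 0.53 and 1.01. KRT80, at 2.66, 0.411 and 0.531 CPM in DMSO and 0.546 to 6.97 (median 2.94) CPM under treatment, gave 1.38 ± 0.54 (adjusted p = 0.134). It passed without DMSO replicate 1, its highest DMSO library, with 2.90 (adjusted p = 0.0104).

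KRT19 levels in NCI-H647 split by replicate number, and so did those of KRT8 at 6 h. For KRT8 replicate 1 was lowest in 7 of 7 groups at 6 h, 196 to 232 CPM against 286 to 601 CPM in replicates 2 and 3. For KRT18 replicate 1 was lowest in 6 of 7 groups at 6 h and in 5 of 7 at 24 h. Replicate 1 had the lowest KRT19 level in 7 of 7 groups at 6 h, 3.49 to 9.13 CPM against 20.1 to 38.6 CPM in replicates 2 and 3. At 24 h it was lowest in 6 of 7 groups, 1.91 to 6.81 CPM against 2.64 to 28.4 CPM. DMSO at 24 h was the exception, at 6.81, 5.35 and 5.31 CPM. The response over all treatments at 24 h was 0.80 ± 0.80 (adjusted p = 0.635), in a fit without the replicate numbers. Within replicate numbers 1, 2 and 3 the differences in log2(CPM + 1) were -0.72, 1.16 and 1.14.

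**Figure D2:**
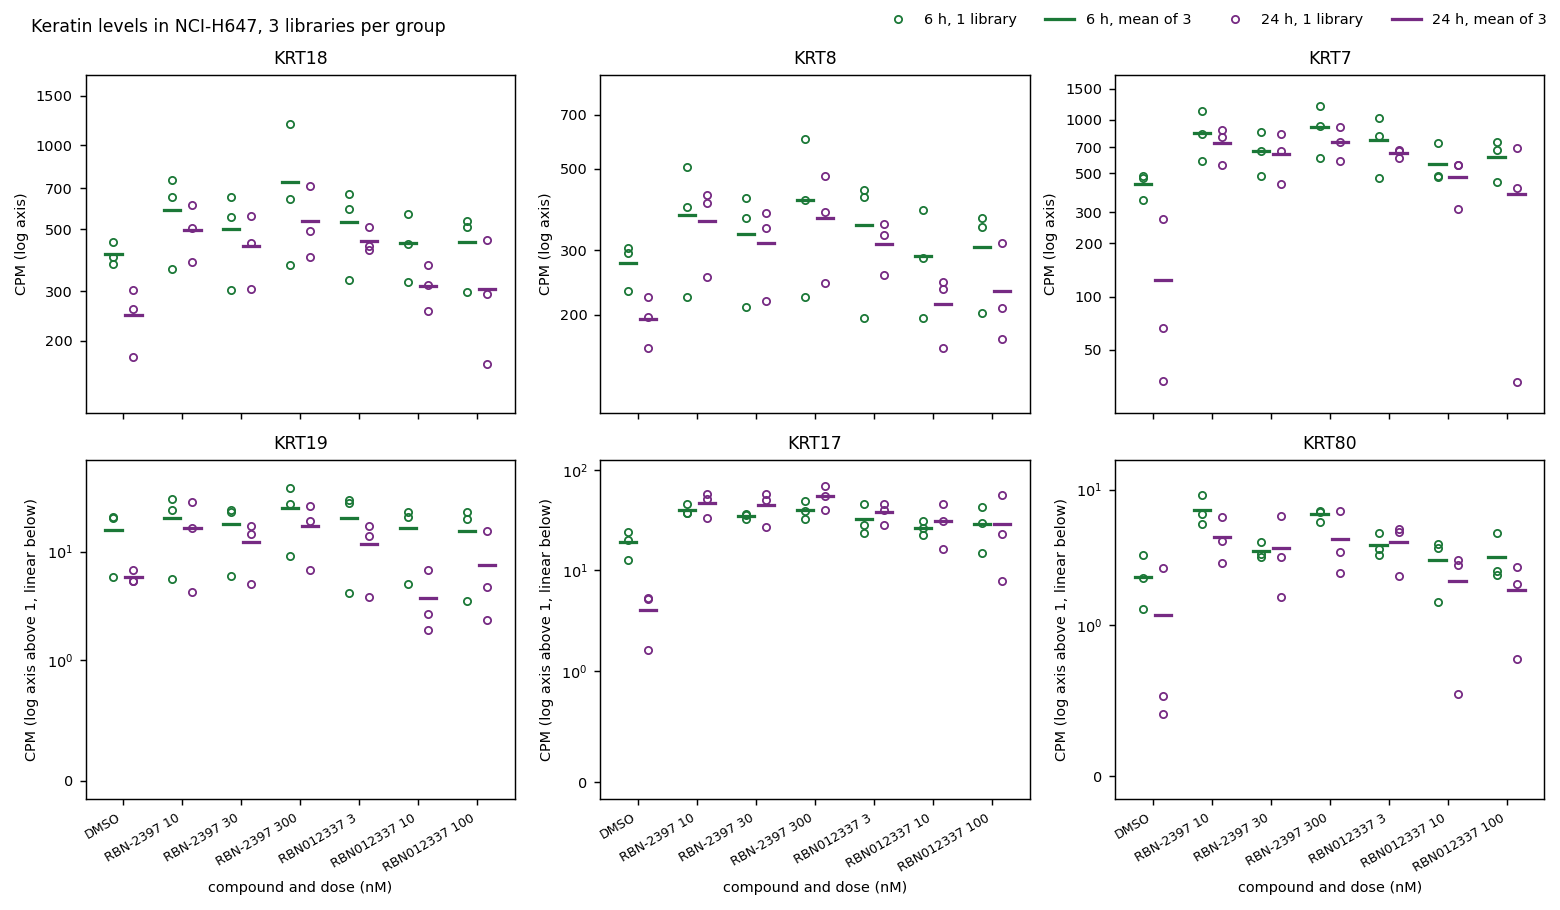
Levels of 6 keratins in NCI-H647 in CPM (log axis, linear below 1 CPM for KRT19, KRT17 and KRT80) by compound and dose, at 6 h (green) and 24 h (purple). Circles are single libraries and bars the means of 3. KRT17 at 24 h separates DMSO, at 5.33, 5.14 and 1.59 CPM, from all 18 treated libraries, and KRT7 in DMSO spans 33.5 to 275 CPM.

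After 6 h no member passed in either line, beside 1.16% of tested genes in NCI-H1373 and 0.0135% in NCI-H647. In NCI-H1373 the log2 differences ran from -0.04 (KRT8) to 1.32 ± 0.83 (KRT17, adjusted p = 0.490). KRT18, at 2194, 964 and 1517 CPM in DMSO and 1413 to 2553 (median 1755) CPM under treatment, gave 0.14 ± 0.21 (adjusted p = 0.855), with 4 of 18 treated libraries above the DMSO range. In NCI-H647 KRT17 was at 24.4, 12.8 and 20.1 CPM in DMSO and 15.1 to 49.03 (median 34.4) CPM under treatment, 0.70 ± 0.34 (adjusted p = 0.550). All 6 tested members there had values above 0, and none had an adjusted p below 0.55. Their median was 0.439, and that of all tested genes -0.00495.

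**Figure D3:**
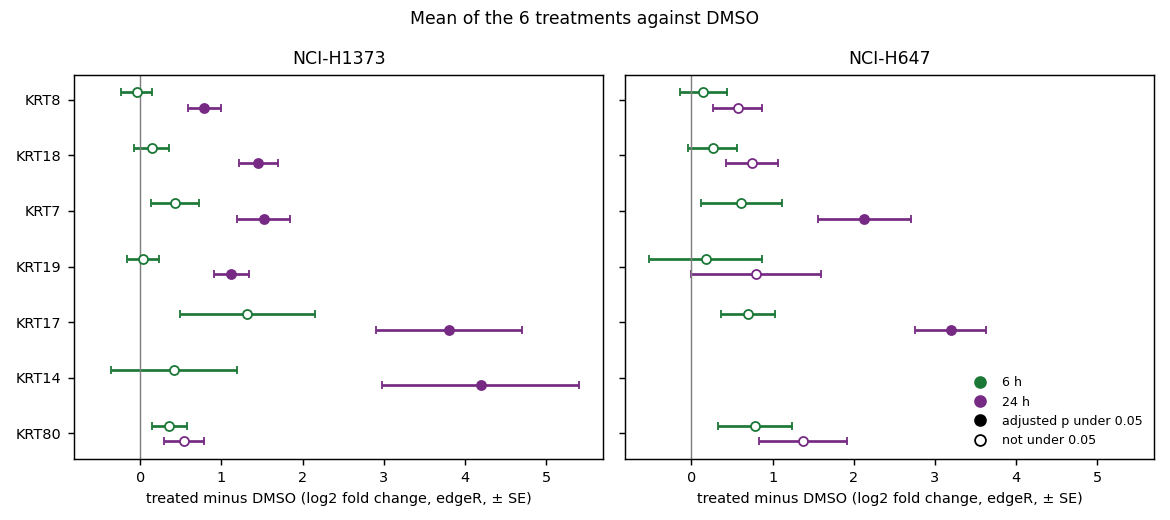
Log2 difference between the mean of the 6 treatments and DMSO for each tested keratin, with standard errors from edgeR, at 6 h (green) and 24 h (purple) in both lines. Filled points have an adjusted p under 0.05: 6 of 7 in NCI-H1373 and 2 of 6 in NCI-H647 at 24 h, and none at 6 h.

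The 2 times differ in their vehicle levels as well as in their treated levels. In NCI-H1373, KRT7, KRT18 and KRT80 were lower in DMSO at 24 h than at 6 h, 3 of 7 members beside 5.46% of tested genes called lower and 9.12% in either direction. KRT7 in DMSO was at 2044, 549 and 1178 CPM at 6 h and 218, 374 and 557 CPM at 24 h, -1.90 ± 0.39 on the log2 scale (edgeR adjusted p = 0.00295), with 1 value at 6 h (549 CPM) inside the 24 h range. KRT18 fell from 2194, 964 and 1517 to 672, 918 and 907 CPM, -1.13 ± 0.28 (adjusted p = 0.0111), and these values did not overlap. KRT80 fell by 0.95 ± 0.30 (adjusted p = 0.0407), and KRT19 gave -0.67 ± 0.26 (adjusted p = 0.0957). In the treated groups, a comparison added after the DMSO result was seen, KRT7 and KRT80 were also lower at 24 h (-0.80 ± 0.15 and -0.76 ± 0.12). KRT17 (2.11 ± 0.33), KRT14 (1.40 ± 0.36), KRT19 (0.42 ± 0.11) and KRT8 (0.37 ± 0.10) were higher. KRT18 gave 0.19 ± 0.11 (adjusted p = 0.202). With 18 libraries at each time that test has a small standard error, and it called 35.1% of all tested genes in either direction.

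The response itself was compared between times with an interaction contrast that shares these DMSO libraries. In NCI-H1373 it was larger at 24 h for KRT18, by 1.32 ± 0.30 (adjusted p = 0.0393), 1 of 7 members beside 0.53% of tested genes. KRT19 gave 1.09 ± 0.28 (adjusted p = 0.0593), KRT7 1.09 ± 0.41 (0.206) and KRT80 0.19 ± 0.32 (0.885). Leaving out DMSO replicate 1 or 2 at either time ended the KRT18 call and left 0 members called. The adjusted p was then 0.144 and 0.0506 without the 6 h libraries, and 0.167 and 0.170 without the 24 h libraries. The count rose to 2 without any 1 of 7 libraries (RBN-2397 30 nM at 6 h replicates 1 and 2 and at 24 h replicate 2, the 3 of RBN012337 100 nM at 24 h, and DMSO at 6 h replicate 3) and to 3 without DMSO at 24 h replicate 3. The vehicle difference of KRT18 was likewise lost without DMSO replicate 1 at 6 h (adjusted p = 0.104) or replicates 1 or 2 at 24 h (0.0978 and 0.0519). That of KRT80 was lost without replicates 1 or 2 at 6 h (0.190 and 0.0562) or at 24 h (0.103 and 0.196), while that of KRT7 passed without any 1 of the 6 DMSO libraries (highest adjusted p = 0.04). The vehicle count of 3 was 1 without DMSO replicate 1 at 6 h or replicates 1 or 2 at 24 h.

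In NCI-H647 the vehicle level of KRT17 fell between the times, from 24.4, 12.8 and 20.1 to 5.33, 5.14 and 1.59 CPM, -2.31 ± 0.50 (adjusted p = 0.0426), 1 of 6 members beside 0.284% of tested genes. The ranges did not overlap, but 5 of the 6 fits that left out 1 of these DMSO libraries gave an adjusted p from 0.0577 to 0.169. The sixth, without DMSO replicate 1 at 24 h, called 2 members. In treated libraries KRT17 gave 0.19 ± 0.16 (adjusted p = 0.504), and no member passed there, beside 13.7% of tested genes. The response of KRT17 was larger at 24 h by 2.50 ± 0.53, with adjusted p = 0.0969, beside 0% of genes called. That p was 0.00177 with DESeq2, 0.0341 without DMSO replicate 1 at 24 h, and 0.00208 and 0.0454 without RBN012337 100 nM replicates 2 and 3 at 24 h.

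**Figure D4:**
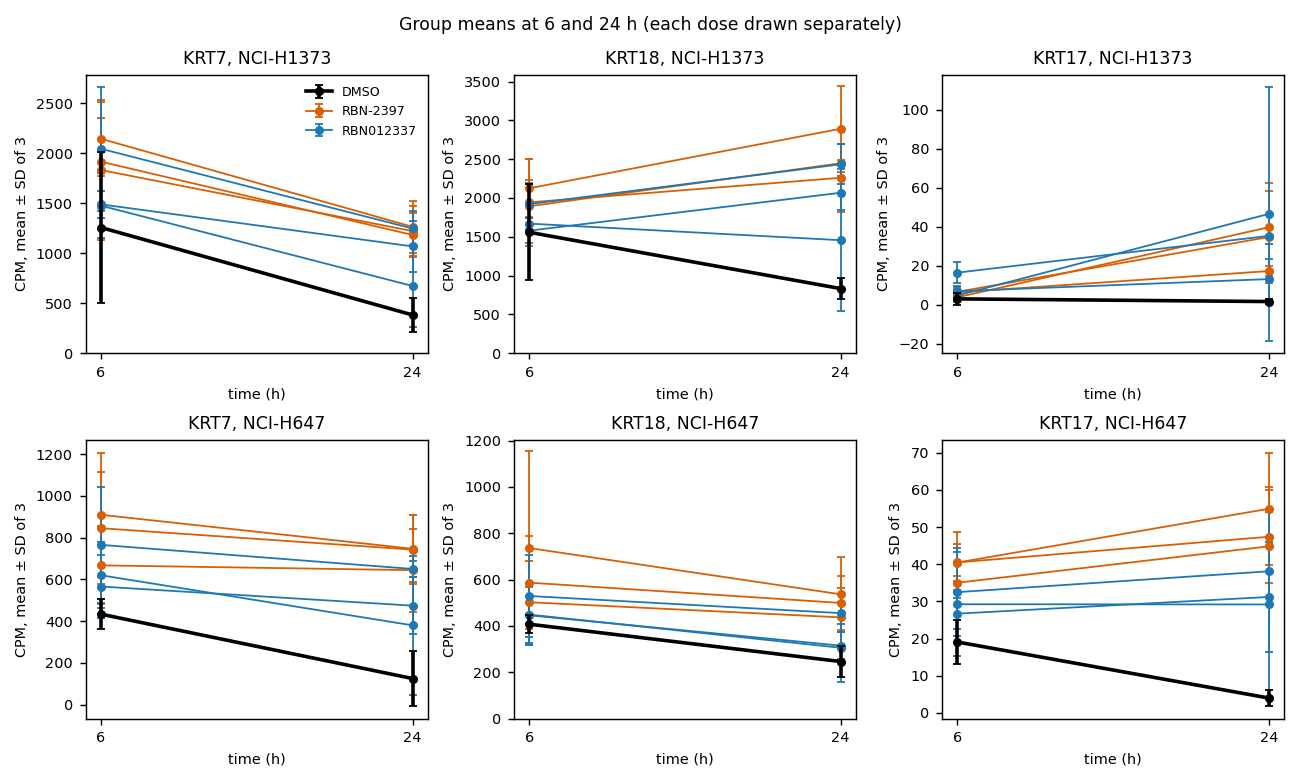
Group means ± SD (n = 3) of KRT7, KRT18 and KRT17 at 6 and 24 h in CPM, with DMSO in black, RBN-2397 in orange and RBN012337 in blue, 1 curve per dose, and bars that reach below 0 where the SD exceeds the mean. DMSO means lie below the treated means at 24 h in all 6 panels, and KRT7 in NCI-H1373 is lower at 24 h than at 6 h in every group.

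Each treatment was then set against DMSO by itself. At 24 h in NCI-H1373, 4, 4 and 6 of 7 members were higher with RBN-2397 at 10, 30 and 300 nM, beside 4.26%, 1.68% and 6.83% of tested genes. With RBN012337 at 3, 10 and 100 nM, 4, 4 and 1 members were higher, beside 4.96%, 1.86% and 0.195%. KRT18, KRT7 and KRT19 passed in all treatments but RBN012337 100 nM. KRT18 gave log2 differences of 1.59 ± 0.28, 1.48 ± 0.28 and 1.86 ± 0.29 with rising doses of RBN-2397, and of 1.61 ± 0.29, 1.38 ± 0.28 and 0.82 ± 0.28 with RBN012337. At RBN012337 100 nM its 3 libraries read 988, 869 and 2510.4 CPM, the first and second near DMSO and the third among the other treated libraries. KRT17 was the member called at that dose, with libraries at 11.9, 6.18 and 121 CPM (adjusted p = 0.0443), a call lost in 13 of the 21 fits that left out 1 library of this line and time, all 3 DMSO libraries among them. KRT14 passed only with RBN-2397 300 nM, at 5.53, 8.01 and 5.36 CPM (adjusted p = 0.0119), and not without DMSO replicate 1 or 2. Over the 6 treatments these are 23 calls, and there were 7 without DMSO replicate 1 and 11 without DMSO replicate 2.

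In NCI-H647 KRT17 was higher in all 6 treatments at 24 h, from 2.73 ± 0.49 (RBN012337 100 nM, adjusted p = 0.00877) to 3.66 ± 0.49 (RBN-2397 300 nM, adjusted p = 4.70e-05). The shares of tested genes called higher were 1.08%, 0.696% and 2.22% for RBN-2397 and 0.365%, 0.135% and 0.101% for RBN012337, by rising dose. KRT7 passed with RBN-2397 300 nM, at 586, 907 and 748 CPM and 2.48 ± 0.67 (adjusted p = 0.0353). Leaving out DMSO replicate 2 or 3 ended the KRT17 call at RBN012337 10 and 100 nM and the KRT7 call, and leaving out replicate 3 of either of those RBN012337 groups, or any 1 replicate of RBN-2397 300 nM, ended that group's call of KRT17 or KRT7. These 7 calls became 4 without DMSO replicate 2 or 3, 15 without DMSO replicate 1 and 11 without RBN012337 100 nM replicate 2. At 6 h no member was called in any of the 12 single treatments, with adjusted p from 0.158 upward. The shares of tested genes called at 6 h in NCI-H1373 were 0.312%, 0.0234% and 1.61% for RBN-2397 and 0.468%, 0.195% and 0% for RBN012337, and in NCI-H647 they were 0.00676% for RBN-2397 10 and 300 nM and 0% for the other 4.

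No difference between doses or compounds passed for a keratin. The only dose the compounds share is 10 nM, and there no member differed in any of the 4 line and time settings, beside 0% of all tested genes in each, with p-values adjusted over all tested genes. For KRT18 in NCI-H1373 at 24 h, RBN-2397 minus RBN012337 was 0.21 (95% interval -0.35 to 0.77), and libraries read 2411, 2441 and 2491 CPM and 1861, 2044 and 2298 CPM. For KRT17 in the same setting it was -1.05 (-2.57 to 0.46), with 16.95, 14.6 and 19.97 CPM and 31.1, 35.7 and 38.9 CPM that did not overlap. For KRT17 in NCI-H647 at 24 h it was 0.60 (-0.21 to 1.42). The KRT17 intervals reach past 1 on the log2 scale, and that of KRT18 does not. Between the highest and the lowest dose of a compound no member passed in any of the 8 comparisons, of which 1 called any gene (RBN012337 at 24 h in NCI-H1373, 0.125%). In that comparison KRT18 was lower at 100 nM than at 3 nM by 0.79 ± 0.28 (adjusted p = 0.187). Without replicate 3 of the 100 nM group 3 members were called, and the 0.125% does not refer to that fit. For RBN-2397 in the same cells, 300 minus 10 nM gave 0.28 ± 0.28 for KRT18 and 1.19 ± 0.74 for KRT17, both with adjusted p = 1.

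The 14 groups of a line were ordered by mean level for each keratin. Other genes were not ordered in this way, so no order below is shown to be particular to keratins. In NCI-H1373 DMSO at 24 h was the lowest group for all 7 detected members, from 0.529 ± 0.915 CPM (mean ± SD, n = 3) for KRT14 to 833 ± 139 CPM for KRT18. The highest was RBN-2397 300 nM at 24 h for KRT8, KRT14, KRT18 and KRT19, the same dose at 6 h for KRT7 and KRT80, and RBN012337 100 nM at 24 h for KRT17. In NCI-H647 DMSO at 24 h was lowest for KRT7, KRT8, KRT17, KRT18 and KRT80. Of the 13 neighbouring pairs of groups in each order, none was free of overlap, except 1 pair each for KRT17 and KRT18 in NCI-H647. RBN-2397 300 nM at 6 h was the highest group there for KRT7, KRT8, KRT18 and KRT19, and its replicate 2 stood apart from the other 6 h libraries: KRT18 was at 374, 1193 and 641 CPM and KRT8 at 224, 601 and 411 CPM.

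No member passed the test of a difference in response between the lines, beside 0.47% of tested genes at 24 h and 0% at 6 h. At 24 h KRT18 gave 0.71 ± 0.38 for NCI-H1373 minus NCI-H647 (95% interval -0.05 to 1.47, adjusted p = 0.622), KRT7 -0.59 ± 0.58 (-1.75 to 0.56) and KRT17 0.59 ± 0.997 (-1.41 to 2.58). KRT18 was called in the first line and not in the second, and its response is not shown to differ between them. For KRT14 no such difference is given, since its NCI-H647 libraries held 6 counts.

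Among 24 other keratins, 5 were tested in each line at 24 h. In NCI-H1373 KRT4, a type II keratin of moist stratified epithelium, was higher under treatment by 4.65 ± 1.08 (adjusted p = 0.00568). It was at 1.94, 0.616 and 6.34 CPM in DMSO, 12 counts in all, and 1.37 to 125 (median 65.6) CPM in treated libraries. In DMSO at 6 h KRT4 was at 84.01, 13.3 and 42.1 CPM, and the treated median at that time was 69.2 CPM. Its DMSO levels were thus lower at 24 h than at 6 h, while the treated medians were close. KRT86 (2.14 ± 0.60) and KRT81 (1.73 ± 0.53), hair keratins so alike that reads may be split between them, were higher as well. Their DMSO libraries at 24 h held only 5 and 10 counts. All 18 treated libraries lay above the DMSO range for KRT86 and 5 of 18 for KRT81. KRT15, a type I keratin of basal cells, was lower under treatment (-1.05 ± 0.24, adjusted p = 0.00443). It was at 50.7, 66.5 and 14.3 CPM in DMSO and 10.1 to 48.1 (median 18.2) CPM in treated libraries. In DMSO at 6 h KRT15 was at 13.2, 6.45 and 10.2 CPM. In NCI-H647 KRT81 rose by 1.46 ± 0.32 (adjusted p = 0.00793), from 2703, 635 and 1701 CPM to 1267 to 6252 (median 5311) CPM, and KRT86 by 1.74 ± 0.35 (adjusted p = 0.00435). KRT81 held a median of 76.6% of the counts of all 55 protein-coding keratin genes in treated NCI-H647 libraries and 76.4% in DMSO at 24 h, on counts that are not scaled by length. The 8 keratins followed here held 21.5% and 21.1% there, against 97.5% and 93.4% in NCI-H1373.

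Other gene lists around keratins, chosen with earlier results of these data known, are given by their counts at 24 h. Of 19 desmosome and cytolinker genes, 16 were tested in NCI-H1373 and 1 rose, ITGB4 (1.50 ± 0.41, adjusted p = 0.0158). ITGB4 is the integrin chain that ties keratins to the basement membrane. Genes that did not pass lay on both sides of 0. Examples are COL17A1 (1.07 ± 0.45), ITGA6 (0.43 ± 0.18), DSP (-0.39 ± 0.16), JUP (-0.53 ± 0.25) and PLEC (-0.13 ± 0.24). In NCI-H647 none of 13 passed. The median of the list was 0.227 in NCI-H1373 and 0.191 in NCI-H647. Of 9 tested genes of other intermediate filaments and keratin organisers in NCI-H1373, VIM, the filament protein of mesenchymal cells (2.16 ± 0.55, adjusted p = 0.0109), and NES (1.54 ± 0.33) rose and TCHP, a keratin-binding protein, fell (-0.77 ± 0.19). In NCI-H647 NES rose (2.05 ± 0.43). Of the transcription factors of keratin-expressing epithelia, 1 of 12 in NCI-H1373 rose, FOXA2 (1.04 ± 0.32, adjusted p = 0.0242), and none of 8 in NCI-H647. Among cornified envelope and squamous genes, S100A2 rose in both lines (1.27 ± 0.31 and 1.29 ± 0.38), LY6D rose in NCI-H1373 (2.49 ± 0.69) and CSTA fell in NCI-H647 (-1.09 ± 0.25), of 5 and 4 tested. LY6D is a surface protein of squamous cells, S100A2 a calcium-binding protein of basal cells, and CSTA a protease inhibitor of the cornified envelope. These counts stand beside 12.1% of all tested genes called in NCI-H1373 and 4.98% in NCI-H647 at 24 h. At 6 h no gene of these lists passed in either line.

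The genes most like a keratin over the 14 groups of a line were found by Pearson correlation of mean log2 CPM, for the member with the smallest adjusted p at 24 h. For KRT18 in NCI-H1373 they were PRSS23 (r = 0.981), STMN3 (0.977), CRIP2 (0.977), FLOT2 (0.976) and CAV1 (0.967). For KRT17 in NCI-H647 they were HTRA3 (0.987), IGFBP4 (0.987), TGFBI (0.985), COL5A1 (0.985) and the long non-coding RNA FLJ22447 (0.983). The 14 points share libraries, scaling and the low DMSO group at 24 h, so these values are a description.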

How the data were processed

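The authors deposited 1 table of estimated counts per gene and library, made from 3' digital gene expression libraries with Salmon 0.11.27 and genome build hg38 per the submitters' processing notes. The handling of annotation, molecular identifiers and strand is not given in the sources used here. The deposited counts were not normalized, 49.4% of nonzero values were not whole, and they were rounded. Gene symbols came from GENCODE 29 (57845 of 57964 identifiers). Each line's 42 libraries (14 groups) were fitted in 1 model with edgeR 4.0.16 (R 4.3.3): TMM scaling, the default filter on low counts (12832 and 14789 genes kept), robust quasi-likelihood tests and Benjamini-Hochberg adjustment over all tested genes at 0.05. Line differences came from a fit of all 84 libraries (16177 genes). The fit was tested on simulated counts. CPM are counts scaled to a total of 1000000 per library. Alternatives were RLE scaling, no filter, DESeq2 1.42.0, a replicate block, fits of 1 line and time, pseudogene counts added and each library left out. The rod-end stretches of KRT8 and KRT80 are not reported here. Members and gene lists were chosen with earlier results of these data known. Every member is named, and other genes only where they belong to a fixed list and passed, serve as examples, or rank among the 5 most correlated. Intervals and the floor of 3 counts cover counting error only.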

Additional observations from a re-analysis of the deposited data

Results flagged for a closer look

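In NCI-H1373 the response of KRT18 to the 6 treatments differed between the times by a test of the difference itself. It was larger at 24 h than at 6 h by 1.32 on the log2 scale (edgeR adjusted p = 0.0393). The contrast holds 2 movements: DMSO fell by 1.13 between the times, while the treated libraries gave 0.19. It was lost without DMSO replicate 1 or 2 of either time, with adjusted p from 0.0506 to 0.170.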

How the results depend on the processing

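No called keratin value changed sign under any alternative it was run with. RLE scaling, added pseudogene counts and leaving out the RBN012337 100 nM group left each count of called members they were run on within 1.5 times. Without a filter on low counts, members called became 4 from 2 (NCI-H647 24 h response), 1 from 0 (NCI-H1373 6 h response), 4 from 1 (NCI-H1373 response 24 h minus 6 h), 2 from 0 (the same in NCI-H647), 4 from 1 (NCI-H647 vehicle 24 h minus 6 h), 2 from 0 (RBN012337 100 minus 3 nM, NCI-H1373 24 h) and 1 from 0 (compounds at 10 nM, NCI-H647 24 h). Calls over single treatments became 22 from 7 (NCI-H647 24 h), 3 from 0 (NCI-H647 6 h) and 1 from 0 (NCI-H1373 6 h). DESeq2 gave 2 (NCI-H1373 24 h minus 6 h response), 1 (the same in NCI-H647) and 11 (NCI-H647 24 h single treatments), and the 21 libraries of NCI-H647 at 24 h alone gave 1 in place of 2. The cause was not tested. Counts from alternative or left-out fits, here and above, stand without the share of all genes called in the same fit. A gain or loss particular to keratins is therefore not shown by them. The labels name no pairing, and the main fits hold no replicate term. With group means removed, 58, 47, 41 and 41 of 63 same-number pairs correlated above 0.1 (NCI-H1373, then NCI-H647, each at 6 and 24 h). In that order median r was 0.273, 0.175, 0.129 and 0.153 for same numbers. It was -0.173, -0.115, -0.0719 and -0.0728 for different numbers. At each line and time, 20 or 21 of 21 libraries lay closest to their own number. Differences shared by a replicate number, known from the data only, therefore stay in the spread of the main fits. With a replicate block the counts were 4 (NCI-H647 24 h response), 14 (its single treatments), 1 (NCI-H647 24 h minus 6 h response), 4 (NCI-H1373 24 h minus 6 h response), 2 (RBN012337 100 minus 3 nM) and 1 (NCI-H1373 6 h single treatments). With 1 library or replicate number left out, counts ranged over 3 to 6 (vehicle line difference at 6 h, KRT14 left out), 3 to 6 (NCI-H1373 24 h response), 7 to 25 (its single treatments), 1 to 4 (NCI-H1373 vehicle times), 0 to 3 (NCI-H1373 24 h minus 6 h response and RBN012337 100 minus 3 nM), 1 to 3 (NCI-H647 24 h response), 4 to 15 (its single treatments), 0 to 2 (NCI-H647 vehicle times) and 0 to 1 (NCI-H647 24 h minus 6 h response). A single library of 630654 counts cannot show levels near 1 CPM, which limits KRT14 and KRT17 in DMSO.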

Other observations

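KRT10, a type I keratin of suprabasal cells, was detected in all 84 libraries, at 30.2 to 116 CPM in NCI-H1373 and 39.9 to 127 CPM in NCI-H647. KRT6A, a partner of KRT17 in wounded epidermis, had 323 counts in 36 of 42 NCI-H647 libraries and 3 counts in NCI-H1373. KRT16, the other wound keratin, had 139 and 82 counts in NCI-H1373 and NCI-H647, and KRT20, of gut epithelium, had 6 and 0.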
